A study of Mus musculus with 8 samples.

Results

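Chemokines are small secreted or membrane-anchored proteins that attract white blood cells through receptors on those cells. Epithelial cells of the skin release several of them when they are wounded or stimulated. The genes described here were 10 chemokine genes of that kind, chosen by symbol: CXCL1, CXCL2, CXCL3, CXCL8, CXCL14, CXCL16, CX3CL1, CCL2, CCL20 and CCL28. All 10 had exactly 1 entry among the 58304 genes kept from the deposited table. In the skin, CXCL1, CXCL2, CXCL3 and CXCL8 carry a short glutamate-leucine-arginine motif (ELR) and recruit neutrophils through the receptors CXCR1 and CXCR2. CCL2 recruits monocytes through CCR2, CCL20 acts through CCR6, and CCL28 acts through CCR10 and CCR3. CXCL16 and CX3CL1 are made as membrane proteins that bind CXCR6 and CX3CR1 and are released by the proteases ADAM10 and ADAM17. CXCL14 is a chemokine of resting epithelium.

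The study asked how recombinant fibroblast growth factor 4 (rFGF4) alters gene expression in healing wounds. Per the labels, the rFGF4 group (4 libraries) and the PBS group (4 libraries, the vehicle) both came from C57BL/6 mice of 6 to 8 weeks, from skin within 2 mm of wounds sampled at 6 days. The table does not hold mouse genes: all 58304 identifiers kept are human and 0 are mouse, and the sources used here do not say which cells were sequenced. The groups below are therefore "the libraries labelled rFGF4" and "the libraries labelled PBS", taken from the column names, and nothing below is a statement on mouse wounds. Nothing in the labels says that the replicates are separate animals or cultures of the cells sequenced, so p-values measure only the spread between these libraries.

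Levels are FPKM (fragments mapped to a gene, scaled by its length and the library's depth, as the authors deposited them), and a value ± SD covers 4 libraries. The libraries held 62044121 to 73680756 counts. Low counts piled up at 4, with 9781 entries against 3485 at 3 and 1977 at 5, and 1 sequenced fragment was taken as about 4 counts. The detection floor was set at 3 such fragments, or 12 counts in a library. Entries at 1 (5170) and 2 (4545) were also common and are below 1 fragment on that scale, so the floor and all fragment numbers below are approximate. The differences between groups were tested with edgeR's quasi-likelihood test over all genes whose FPKM averaged at least 1. Members under that level but with a mean of at least 12 counts were tested in a second fit over all genes with such a mean. P-values were Benjamini-Hochberg adjusted over every gene tested, with a threshold of 0.05.

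DUSP6, a phosphatase induced by FGF signalling, served as a check of the labels. The check was chosen with earlier results of these data known, so it is not independent. DUSP6 averaged 37.1 ± 5.67 FPKM in the libraries labelled rFGF4 and 7.62 ± 0.970 FPKM in those labelled PBS, and rose by 2.31 on the log2 scale (SE 0.12, edgeR adjusted p = 0.000115). The FGF4 transcript was at 0 in all 8 libraries, which cannot show whether recombinant protein was given. The basal keratinocyte markers were high and most leukocyte markers were at or near 0. The 5 basal keratinocyte markers (KRT5, KRT14, TP63, ITGB4 and COL17A1) summed to 1852 to 1990 FPKM in the rFGF4 libraries and 2013 to 2302 FPKM in the PBS libraries. Of the 5 neutrophil markers, CSF3R, FCGR3B, MPO and ELANE were at 0 in every library and only CXCR2 was counted. The T cell list summed to at most 0.0803 FPKM in an rFGF4 library and 0.0165 FPKM in a PBS library. The 6 monocyte and macrophage markers summed to 8.17 to 11.0 FPKM in the rFGF4 libraries and 7.73 to 8.86 FPKM in the PBS libraries, nearly all of it CD68, a lysosomal protein that other cells also express. CD14 was counted in every library and averaged 0.385 FPKM in rFGF4 and 0.350 FPKM in PBS libraries.

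The 10 chemokine genes spread over a wide range of levels, in the order CCL2, CXCL16, CXCL1, CXCL8, CCL28, CXCL3, CXCL2, CCL20, CXCL14 and CX3CL1 by mean FPKM over the 8 libraries. CCL2, CXCL16 and CXCL1 followed each other without overlap, since the lowest value of each exceeded the highest of the next in both groups. The place of CXCL8 depended on the group: in the rFGF4 libraries its lowest value, 1.06 FPKM, lay above the highest of CCL28, 0.857 FPKM, while in the PBS libraries its range reached from 0.172 to 0.433 FPKM, below all values of CCL28. From CXCL3 to CXCL2 and from CCL20 to CX3CL1, neighbours in the order overlapped in both groups. All of these levels come from whole libraries, in which fewer cells making a transcript and less transcript per cell cannot be told apart.

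**Figure D1:**
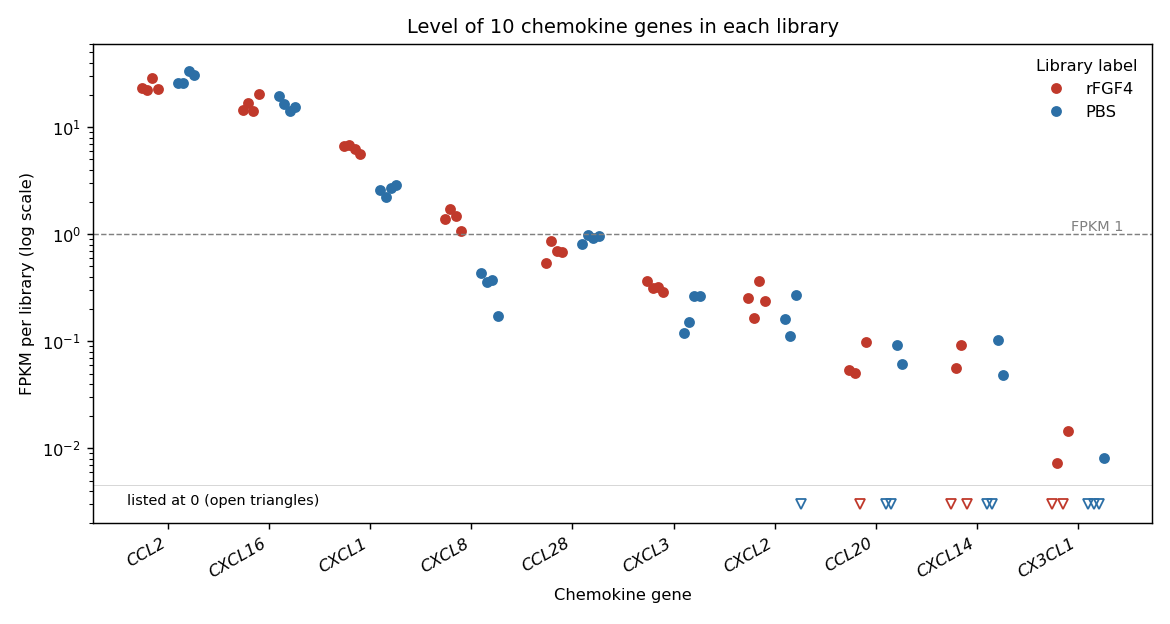
FPKM of the 10 chemokine genes in each library on a log scale, with the 4 rFGF4 libraries (red) left of the 4 PBS libraries (blue) for each gene and libraries listed at 0 as open triangles at the foot. CXCL1, CXCL8 and CXCL3 show rFGF4 points above all PBS points, and CCL20, CXCL14 and CX3CL1 hold several libraries at 0.

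The neutrophil-attracting ELR chemokines held the only called changes among the members, and both were higher in the libraries labelled rFGF4. CXCL1 (ENSG00000163739, chromosome 4, 73869393 to 73871242, plus strand, as the table gives it; the sources used here name no genome build) stood at 6.70, 6.85, 6.32 and 5.64 FPKM in rFGF4 replicates 1 to 4. In PBS replicates 1 to 4 it stood at 2.61, 2.22, 2.70 and 2.90 FPKM. All rFGF4 libraries were above all PBS libraries, and the groups averaged 6.38 ± 0.538 FPKM in rFGF4 and 2.61 ± 0.284 FPKM in PBS libraries. CXCL1 rose by 1.31 on the log2 scale (SE 0.11), 2.48-fold with a 95% interval of 1.06 to 1.56 on the log2 scale, with an edgeR adjusted p of 0.000471.

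CXCL8 (ENSG00000169429, chromosome 4, 73740541 to 73743716, plus strand), the interleukin-8 gene, which mice lack, was lower in level but showed the larger fold change. Its FPKM was 1.40, 1.72, 1.48 and 1.06 in rFGF4 replicates 1 to 4, and 0.433, 0.359, 0.376 and 0.172 in PBS replicates 1 to 4. The groups did not overlap, and PBS replicate 4 was the lowest library. Its mean over all 8 libraries, 0.875 FPKM, put it just under the filter at an FPKM of 1, so it was tested in the fit of genes with a mean of at least 12 counts. There CXCL8 rose by 2.09 (log2; SE 0.27), 4.26-fold, with an edgeR adjusted p of 0.00347. The rFGF4 libraries together held about 272 fragments, with an exact 95% Poisson interval of 241 to 306, and the PBS libraries about 61, with an interval of 46.7 to 78.4. Such intervals cover counting error only.

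CXCL3 and CXCL2, the close paralogs of CXCL1, were at low counts. CXCL3 (ENSG00000163734, chromosome 4, 74036589 to 74038807, minus strand) had 71, 62, 60 and 58 counts in rFGF4 replicates 1 to 4 and 24, 27, 45 and 47 counts in PBS replicates 1 to 4. Its rFGF4 libraries lay above all PBS libraries in FPKM (0.322 ± 0.0295 in rFGF4 and 0.200 ± 0.0750 in PBS libraries). It did not pass the test: the log2 fold change was 0.71 (SE 0.31), with an unadjusted p of 0.0475 and an edgeR adjusted p of 0.229. CXCL2 (ENSG00000081041, chromosome 4, 74097040 to 74099195, minus strand) had 32, 20, 44 and 29 counts in rFGF4 replicates 1 to 4 and 20, 13, 29 and 0 counts in PBS replicates 1 to 4. The groups overlapped, and the log2 fold change of 0.94 had an SE of 0.82 and a 95% interval of −0.93 to 2.81 (edgeR adjusted p = 0.584), so neither a rise nor a fall of CXCL2 was detectable. The log2 fold change was 0.53 (SE 0.45) without PBS replicate 4, the library at 0 counts, and 1.49 (SE 0.90) without PBS replicate 3. CXCL1, CXCL2 and CXCL3 are similar enough in sequence for reads to be assigned to the wrong copy, and the sources used here do not say how the authors' counting treated such reads.

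Summed over the 4 ELR members, which depends less on how reads were divided among them, the level was 8.72, 9.04, 8.49 and 7.24 FPKM in rFGF4 replicates 1 to 4. The sum was 3.33, 2.84, 3.61 and 3.34 FPKM in PBS replicates 1 to 4. CXCL1 made up most of it in every library, with 74.5% to 78.0% in rFGF4 and 74.8% to 86.9% in PBS libraries. The share of CXCL8 was 14.7% to 19.0% in rFGF4 libraries and 5.15% to 13.0% in PBS libraries, without overlap.

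Among the 3 members at a mean FPKM of at least 1, 1 was called higher (CXCL1) and 0 lower. Of all 11536 genes tested in that fit, 5.49% were called higher and 4.54% lower. Among the 7 members with a mean of at least 12 counts, 2 were called higher (CXCL1 and CXCL8) and 0 lower. The background for that count was 3.58% higher and 3.07% lower among 17705 genes. At an unadjusted p under 0.05 the edgeR counts among the 7 were 3 higher (CXCL1, CXCL8 and CXCL3) and 1 lower (CCL28), against 11.2% higher and 10.1% lower over all genes. DESeq2 and limma on log2(FPKM + 1) also called CXCL1 and CXCL8 higher and 0 members lower. Over all genes with an adjusted p, DESeq2 called 6.51% higher and 5.99% lower, and limma called 3.23% higher and 3.93% lower. The median log2 fold change of the 7 members was 0.71, the value of CXCL3, in a range of −0.36 to 2.09. It was 0.00254 over all genes of that fit. For the 3 members at a mean FPKM of at least 1 the median was 0.04, against 0.00153 over all genes. FPKM groups without overlap and with rFGF4 higher were seen for CXCL1, CXCL8 and CXCL3 among the 7, against a background of 6.93% of the genes in that fit, and with rFGF4 lower for 0, against 9.23%. Among the 3 members at a mean FPKM of at least 1, these counts were 1 higher and 0 lower, against 8.76% and 10.4% of all genes. CXCL1 had been reported as higher in these data before the members were chosen, so its call is not independent evidence for the group.

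**Figure D2:**
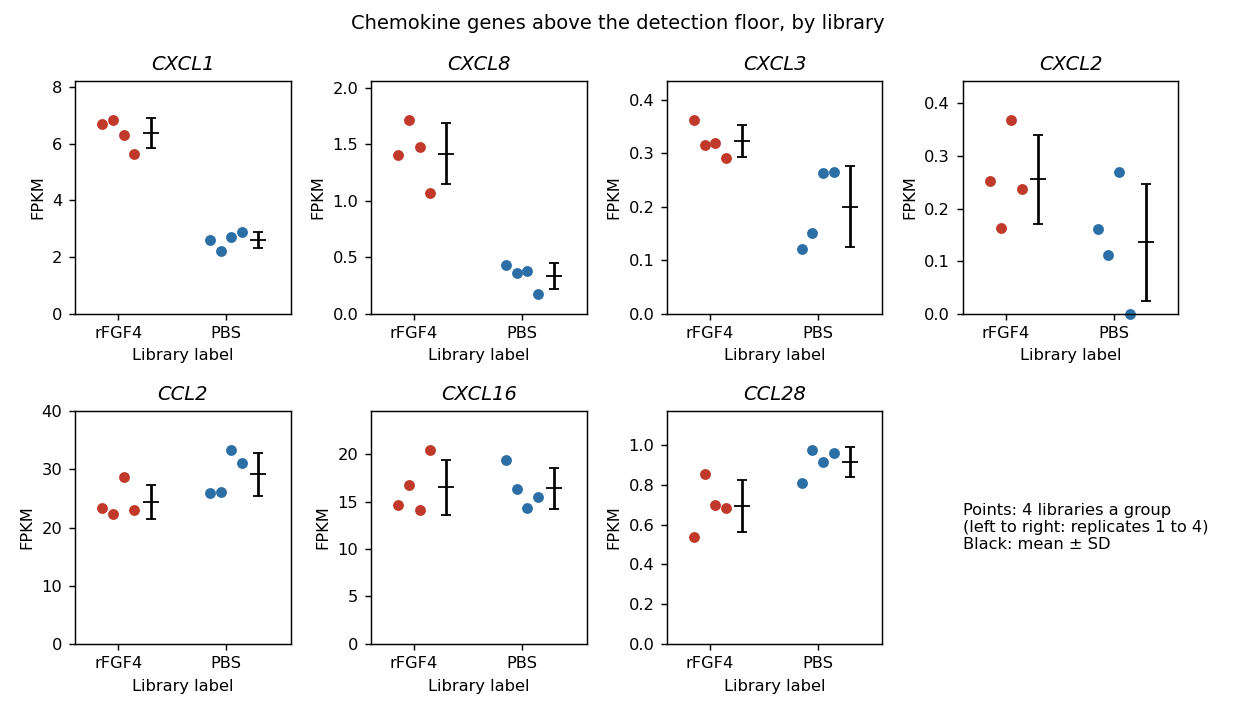
FPKM in each library for the 7 chemokine genes with a mean of at least 12 counts, rFGF4 left and PBS right, on linear axes from 0; black marks give the mean ± SD of 4 libraries. The rFGF4 points lie above all PBS points for CXCL1, CXCL8 and CXCL3, while the groups overlap for CXCL2, CCL2, CXCL16 and CCL28.

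CCL2 and CXCL16, the most abundant members, were not called. CCL2 (ENSG00000108691, chromosome 17, 34255218 to 34257203, plus strand), the monocyte attractant, stood at 23.3, 22.4, 28.8 and 23.0 FPKM in rFGF4 replicates 1 to 4 and at 26.0, 26.1, 33.3 and 31.1 FPKM in PBS replicates 1 to 4. Replicates 1, 2 and 4 of the rFGF4 libraries lay below every PBS value, and replicate 3 reached into the PBS range. The log2 fold change was −0.23 (SE 0.12, 95% interval −0.50 to 0.04, edgeR adjusted p = 0.266). CXCL16 (ENSG00000161921, chromosome 17, 4733533 to 4739928, minus strand), a membrane chemokine that also binds oxidized lipoprotein, stood at 14.6, 16.8, 14.2 and 20.5 FPKM in rFGF4 replicates 1 to 4. It stood at 19.4, 16.4, 14.3 and 15.5 FPKM in PBS replicates 1 to 4. The ranges overlapped almost wholly, and the log2 fold change was 0.04 (SE 0.14, 95% interval −0.30 to 0.37, edgeR adjusted p = 0.914). A rise as large as that of CXCL1 lay outside this interval. CXCL16 overlaps 2 genes on the other strand, MED11 by 75 bases and ZMYND15 by 96 bases. MED11 averaged 13.4 ± 1.75 FPKM in rFGF4 and 13.5 ± 1.14 FPKM in PBS libraries, and ZMYND15 had at most 115 counts in a library. The sources used here do not say whether reads were counted by strand, so some counts could be shared between these genes.

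CCL28 (ENSG00000151882, chromosome 5, 43376645 to 43412391, minus strand), a chemokine of mucosal and glandular epithelium, stood at 0.536, 0.857, 0.696 and 0.683 FPKM in rFGF4 replicates 1 to 4. It stood at 0.808, 0.975, 0.917 and 0.961 FPKM in PBS replicates 1 to 4. The groups overlapped through rFGF4 replicate 2 and PBS replicate 1. Its log2 fold change was −0.36 (SE 0.15), with an unadjusted p of 0.0439 and an edgeR adjusted p of 0.220, so it did not pass.

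CCL20, CXCL14 and CX3CL1 had mean counts under the detection floor in both groups and were not tested. Single libraries of CCL20 and CXCL14 lay above it. CCL20 (ENSG00000115009, chromosome 2, 227805739 to 227817564, plus strand) had 8, 8, 0 and 15 counts in rFGF4 replicates 1 to 4 and 0, 0, 12 and 8 counts in PBS replicates 1 to 4. CXCL14 (ENSG00000145824, chromosome 5, 135570679 to 135579279, minus strand) had 0, 10, 16 and 0 counts in rFGF4 replicates 1 to 4 and 0, 0, 15 and 8 counts in PBS replicates 1 to 4. On the other strand AC034206 overlaps CXCL14 by 8601 bases, with at most 5 counts in a library. CX3CL1 (ENSG00000006210, chromosome 16, 57372477 to 57385044, plus strand) had 0, 4, 0 and 8 counts in rFGF4 replicates 1 to 4 and 0, 0, 0 and 4 counts in PBS replicates 1 to 4. The counts of these 3 members are at most about 4 fragments in any library, and no fold change is given. The exact Poisson intervals for the fragments of all 4 libraries together were 3.45 to 15.8 in rFGF4 and 1.62 to 11.7 in PBS libraries for CCL20, and 2.20 to 13.1 in either group for CXCL14. CXCL2, with a mean of 31.2 counts in rFGF4 and 15.5 counts in PBS libraries, lay just above the floor on average in its PBS libraries, 1 of which was at 0. CXCL3 averaged 62.8 counts in rFGF4 and 35.8 counts in PBS libraries, and its lowest library held 24 counts.

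Whether the members differed in response was tested by the ratio of their FPKM within each library, which cancels the scaling between libraries. The ratios use the same libraries and genes as the tests above and are not independent of those calls. The log2 ratio of CXCL1 to CCL2 averaged −1.93 ± 0.217 in rFGF4 libraries and −3.48 ± 0.138 in PBS libraries, a difference of 1.55. The log2 ratio of CXCL1 to CXCL16 averaged −1.36 ± 0.339 in rFGF4 libraries and −2.65 ± 0.273 in PBS libraries, a difference of 1.29. Both ratios were higher in every rFGF4 library than in any PBS library (two-sided exact permutation p = 0.0286, the smallest that 4 against 4 allows; 0.0429 adjusted over the 3 pairs of members at a mean FPKM of at least 1). The third pair, CXCL16 to CCL2, overlapped and differed by 0.26 (exact permutation p = 0.371). A further set of all 15 pairs of the 6 members with counts in every library was chosen after the data were seen. Its pairs share members, and several tied at the smallest exact p, on which the adjusted value below rests. In it CXCL8 gained on each of the other members, including CXCL1: the log2 ratio of CXCL1 to CXCL8 averaged 2.19 ± 0.180 in rFGF4 libraries and 3.04 ± 0.701 in PBS libraries, without overlap (exact permutation p = 0.0286, 0.0429 adjusted over the 15 pairs). The untransformed ratio ran from 3.99 to 5.30 in rFGF4 libraries, while PBS replicates 1 to 3 were at 6.04, 6.20 and 7.19 and PBS replicate 4 at 16.9.

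The 4 ELR members lie together on chromosome 4, in a stretch of 359 kb from the start of CXCL8 to the end of CXCL2 that holds 16 genes of the table. In that stretch 8 of the 16 genes were at 0 counts in every library, as were 28630 of all 58304 genes kept. Among the 8 were PF4 and PPBP, which encode platelet chemokines, and the copy CXCL1P1. CXCL6, an ELR chemokine that lies between CXCL8 and CXCL1 and also signals through CXCR1 and CXCR2, was measured at 1.65 ± 0.186 FPKM in rFGF4 and 1.69 ± 0.211 FPKM in PBS libraries. Its log2 fold change was −0.01 (SE 0.14, edgeR adjusted p = 0.977). CXCL5, an ELR chemokine on the other side of CXCL1, had at most 8 counts in a library. Of the 16 genes, 5 had a mean of at least 12 counts, namely CXCL8, CXCL6, CXCL1, CXCL3 and CXCL2. Over all 58304 genes kept, 17705 had such a mean.

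**Figure D3:**
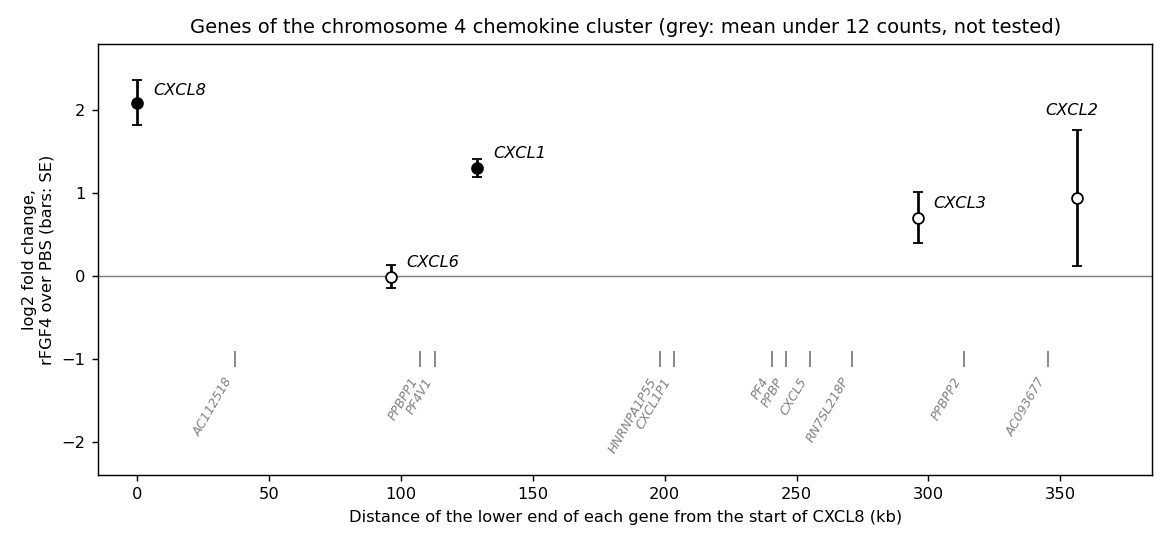
Log2 fold change, rFGF4 over PBS, with SE, of the genes in the chromosome 4 cluster against distance from the start of CXCL8; filled points passed the edgeR test, and grey marks are genes with a mean under 12 counts. CXCL1 and CXCL6 come from the fit at a mean FPKM of at least 1 and the others from the fit at 12 counts; CXCL6 sits at −0.01 between CXCL8 at 2.09 and CXCL1 at 1.31.

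The other genes of the pathway were taken from 8 lists of 81 genes (ligands, receptors, atypical receptors, shedding proteases, cytokine inputs, and regulators of chemokine mRNA and NF-kappa B), of which 80 had an entry. At a mean FPKM of at least 1, 19 were tested, and 4 were higher and 1 lower in the rFGF4 libraries, beside 5.49% and 4.54% over all genes. Their median log2 fold change was 0.11, against 0.00153 over all genes. The lists were chosen with earlier results of these data known, so these values are not independent evidence on the pathway. Of the other ligands listed (3 ELR, 10 further CXC and XC, and 24 CC), CXCL6 and CCL5 were tested at that level. CCL5, a T cell attractant, averaged 4.57 ± 0.663 FPKM in rFGF4 and 3.85 ± 0.480 FPKM in PBS libraries (log2 fold change 0.28, SE 0.14, edgeR adjusted p = 0.281). CCL26, the next CC ligand in level, did not pass at 12 counts (log2 fold change −0.72, SE 0.49), nor did CXCL11, the highest of the further CXC ligands (−1.01, SE 0.82), and CXCL10 had at most 8 counts in a library. Taken over all listed ligands with an entry, members included, CCL2 and CXCL16 together made up 69.3% to 72.6% of the summed FPKM in rFGF4 libraries and 79.1% to 80.7% in PBS libraries. The ELR members made up 12.1% to 16.3% in rFGF4 libraries and 5.40% to 6.06% in PBS libraries.

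The receptors were scarce. None of the 18 conventional receptors reached a mean FPKM of 1, and 4 reached 12 counts. CXCR2, the receptor of CXCL1 and CXCL8, stood at 0.212, 0.291, 0.283 and 0.233 FPKM in rFGF4 replicates 1 to 4 and at 0.559, 0.510, 0.580 and 0.381 FPKM in PBS replicates 1 to 4. The groups did not overlap, and CXCR2 fell by 0.94 on the log2 scale (SE 0.19, edgeR adjusted p = 0.0235) in the fit at 12 counts. The call was lost when any 1 of rFGF4 replicates 1 and 3 and PBS replicates 1, 2 and 3 was left out (adjusted p = 0.0502 to 0.0707). CCR7, the next receptor in level, averaged 0.0981 ± 0.0854 FPKM in rFGF4 and 0.141 ± 0.0143 FPKM in PBS libraries and did not pass (log2 fold change −0.50, SE 0.84). CXCR6 and CX3CR1, the receptors of CXCL16 and CX3CL1, had means under 12 counts and were not tested.

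The atypical receptor ACKR3, which takes up CXCL11 and CXCL12 without the signalling of other chemokine receptors, was the most abundant receptor. It stood at 9.64, 11.0, 10.5 and 9.59 FPKM in rFGF4 replicates 1 to 4 and at 18.3, 18.4, 18.6 and 18.9 FPKM in PBS replicates 1 to 4. ACKR3 fell by 0.84 on the log2 scale (SE 0.06, edgeR adjusted p = 0.000287). Its ligand CXCL12 had at most 4 counts in a library. ACKR4, the next atypical receptor in level, averaged 0.195 ± 0.0694 FPKM in rFGF4 and 0.157 ± 0.0688 FPKM in PBS libraries and did not pass (log2 fold change 0.35, SE 0.39).

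Among the proteases that release CXCL16 and CX3CL1, ADAM10 averaged 7.05 ± 1.39 FPKM in rFGF4 and 7.41 ± 1.06 FPKM in PBS libraries (log2 fold change −0.05, SE 0.14), and ADAM17 had a log2 fold change of −0.33 (SE 0.17). Neither passed, nor did RHBDF1 (−0.08, SE 0.11). RHBDF2 encodes iRhom2, which helps ADAM17 to mature. It averaged 3.48 ± 0.246 FPKM in rFGF4 and 2.28 ± 0.151 FPKM in PBS libraries and rose by 0.63 (SE 0.08, edgeR adjusted p = 0.00275). Of the cytokines that induce ELR chemokines, IL1A and IL1B were both higher in the rFGF4 libraries. IL1B averaged 34.7 ± 1.69 FPKM in rFGF4 and 18.3 ± 0.856 FPKM in PBS libraries, and rose by 0.95 (SE 0.07, edgeR adjusted p = 0.000280). IL1A averaged 15.4 ± 1.63 FPKM in rFGF4 and 7.68 ± 1.15 FPKM in PBS libraries, and rose by 1.03 (SE 0.12, edgeR adjusted p = 0.00170). The TNF receptor gene TNFRSF1A (0.15, SE 0.10) and the IL-17 receptor gene IL17RA (−0.06, SE 0.16) did not pass. TNF had at most 15 counts in a library, and IL17C was at 0 in every library. At 12 counts IL36G (log2 fold change 0.52, SE 0.64) did not pass. The IL-1 receptor gene IL1R1 did not pass there either (0.73, SE 0.20, edgeR adjusted p = 0.0728). Of the 8 genes of mRNA decay and NF-kappa B feedback, all tested, 1 was called higher and 0 lower, beside 5.49% and 4.54% over all genes. That gene was TNFAIP3, which encodes the inhibitor A20, and it rose by 0.57 (SE 0.12, edgeR adjusted p = 0.0172). The call was lost when rFGF4 replicate 1 or 3, or PBS replicate 1 or 3, was left out (adjusted p = 0.0505 to 0.0542). The 2 most abundant of that list, ZFP36L1 (0.26, SE 0.09) and ELAVL1 (0.11, SE 0.08), did not pass.

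**Figure D4:**
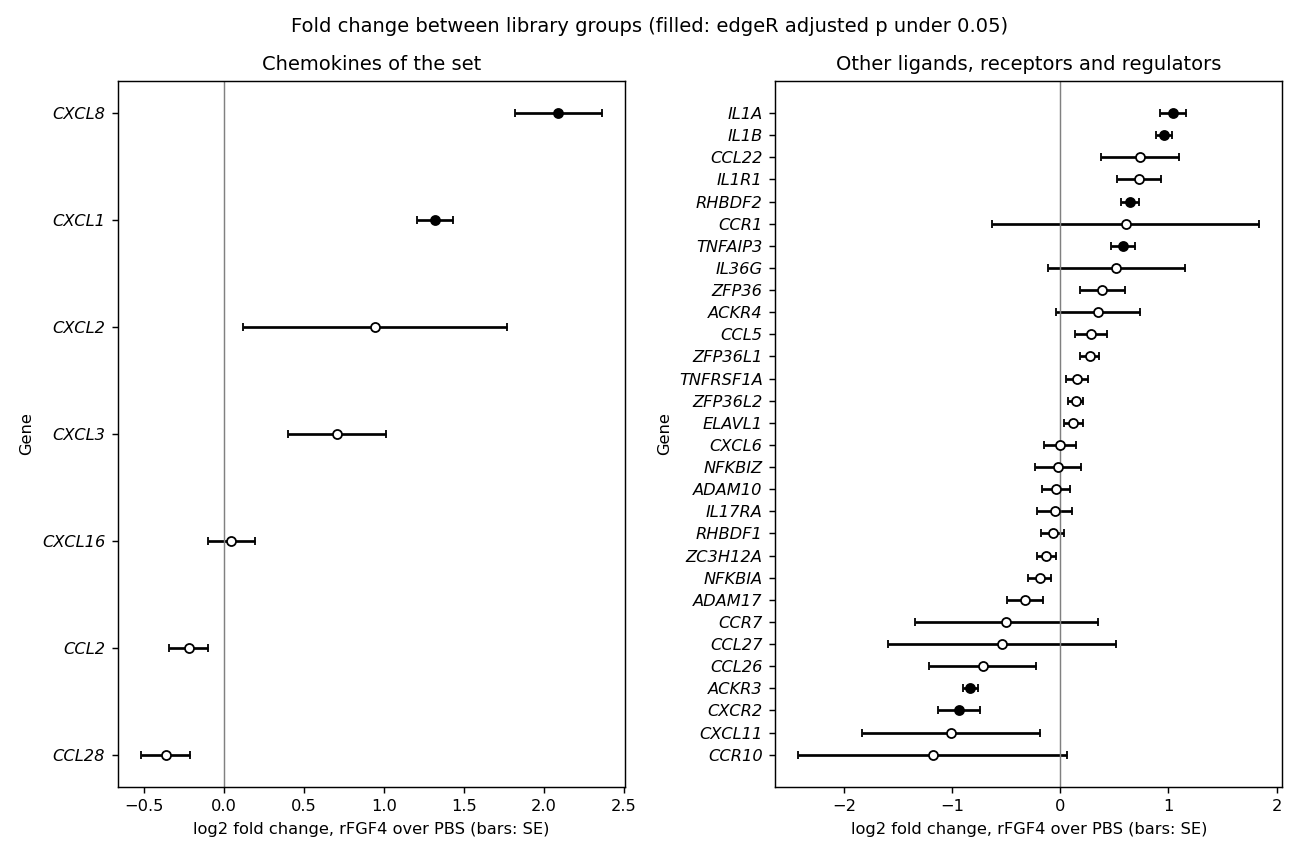
Log2 fold change, rFGF4 over PBS, with SE, for the 7 chemokine genes (left) and 30 listed pathway genes (right), all from the edgeR fit of genes with a mean of at least 12 counts; filled points passed. CXCL8 and CXCL1 lie at the top of the left panel, and IL1A, IL1B, RHBDF2 and TNFAIP3 are filled to the right of 0 and ACKR3 and CXCR2 to its left.

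Markers of other cell types were low. The summed levels of the endothelial and the fibroblast markers did not overlap between the groups. Neither did the sums of the basal keratinocyte markers given above, which were lower in the rFGF4 libraries. Those sums were nearly all KRT5 (log2 fold change −0.22, SE 0.11) and KRT14 (−0.17, SE 0.06). TP63 (0.03, SE 0.19), ITGB4 (0.20, SE 0.07) and COL17A1 (0.10, SE 0.10) had positive signs. At a mean FPKM of at least 1, 0 of these 5 markers were called, beside 5.49% higher and 4.54% lower over all genes. The neutrophil list, whose only counted gene was CXCR2, also did not overlap between the groups. In the fit at 12 counts, 6.93% of single genes had FPKM groups without overlap and rFGF4 higher, and 9.23% with rFGF4 lower. The 3 endothelial markers PECAM1, CDH5 and VWF summed to 3.0 to 4.03 FPKM in rFGF4 libraries and 1.83 to 2.97 FPKM in PBS libraries. The gap between these ranges was narrow, and VWF taken alone overlapped. At 12 counts 0 of the 3 passed the test, beside 3.58% called higher and 3.07% called lower over all genes. The 5 fibroblast markers summed to 0.411 to 0.479 FPKM in rFGF4 libraries and 0.774 to 0.817 FPKM in PBS libraries. COL1A1, COL3A1 and DCN, 3 of the 4 tested at 12 counts, were called lower, beside the same 3.07% over all genes. COL1A2, at 0.0221 FPKM in rFGF4 and 0.0133 FPKM in PBS libraries, did not pass (log2 fold change 0.83, SE 0.95), and PDGFRA averaged 2 counts and was not tested. Of the 3 dendritic and Langerhans cell markers, CD207 and CD1A were at 0 in every library. The 5 markers of differentiated keratinocytes summed to 22.2 to 25.6 FPKM in rFGF4 libraries and 24.7 to 27.8 FPKM in PBS libraries. Of these, 3 were tested at a mean FPKM of at least 1 and 0 were called. In that fit 5.49% of all genes were called higher and 4.54% lower. The part of these cell types in the chemokine results was not tested.

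The genes whose pattern over the 8 libraries was most like that of each member were named by Pearson's r of log2(CPM + 0.5), as a description. For CXCL1 these were NOL6 (r = 0.992), ADAM8 (0.992) and AEN (0.991), all called higher in the rFGF4 libraries, with log2 fold changes of 0.61, 0.99 and 0.91. For CCL2 they were SMPD1 (0.939), ZSWIM1 (0.929) and SKP1 (0.925), and for CXCL16 STARD7-AS1 (0.941), AL121753 (0.934) and MAST4-AS1 (0.917). With the group means removed they were SIL1 (0.973), SLC2A9 (0.945) and NOL6 (0.942) for CXCL1. For CCL2 they were then CAV1 (0.965), ALKBH3 (0.961) and LYRM1 (0.951), and for CXCL16 RPIA (0.975), RAD9A (0.974) and RPL37AP1 (0.955). The libraries share depth and group, and each r was among the 3 highest over all genes tested, so such values are high by selection.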

How the data were processed

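The authors deposited FPKM values and counts for 8 libraries, per the file headers; 0.0001 stands for an FPKM of 0. The submitters' processing notes name HISAT2 2.0 and StringTie 1.3.0 without their roles; the sources used here do not give build, annotation or strandedness. Columns were matched to samples by name. Sex-linked entries, namely Y-linked genes with XIST and TSIX, were dropped (521 of 58825). The whole-number counts as deposited were tested with edgeR 4.0.16 in R 4.3.3 (TMM scaling, quasi-likelihood test, two-sided), once for genes whose FPKM averaged at least 1 and once for genes with a mean of at least 12 counts; the method was tested on simulated counts. SE is the log2 fold change divided by the square root of F. DESeq2 1.42.0, limma 3.58.1, other filters and scalings, counts divided by 4, a replicate block and leaving out each library were alternatives. Within-library ratios were tested by exact permutation in scipy 1.17.1. The members, lists and tests were chosen with earlier results of these data known. The genes named were all members, pathway genes past the threshold, the 2 highest of each list, and the 3 most alike per tested member. Outside that rule, ADAM17, TNF, IL17C, IL36G, IL1R1, IL17RA, CXCL12, CXCR6, CX3CR1, MED11, ZMYND15, AC034206, PF4, PPBP and CXCL1P1 were named after their values were seen, beside marker genes and the check genes DUSP6 and FGF4. No replicate pair agreed within sampling noise (lowest median chi-square per gene 1.47 on 1 degree of freedom, in fragments).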

Additional observations from a re-analysis of the deposited data

Results flagged for a closer look

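In 32 groups of 4 libraries checked, 3 held a library far from the other 3, and chance flags about 1 group in 20. CCL2 stood at 28.8 FPKM in rFGF4 replicate 3, against 22.4 to 23.3 FPKM in the other rFGF4 libraries; without that library its log2 fold change was −0.33 (edgeR adjusted p = 0.127). CX3CL1 was at 0.00813 FPKM in PBS replicate 4 and at 0 in the other PBS libraries, a matter of about 1 fragment. TNFAIP3 was at 1.55 FPKM in PBS replicate 2, against 1.36 to 1.39 FPKM in the other PBS libraries.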

How the results depend on the processing

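CXCL1 passed in all 17 alternatives to the fit at a mean FPKM of 1 (log2 fold change 1.03 to 1.37, adjusted p 4.71e-24 to 0.0123). CXCL8 passed in all 17 alternatives to the fit at 12 counts (0.85 with a pseudocount of 1 to 2.23, adjusted p 7.32e-12 to 0.0155). CXCL2, CXCL3, CCL2, CCL28 and CXCL16 passed in none of theirs. With filterByExpr, without a filter, or with one at 0.1 FPKM, 2 members instead of 1 were called higher, because CXCL8 was then tested. A floor of 4 counts in place of 12 left 1 member with a mean at or under it (CX3CL1) in place of 3. DESeq2 called 982 genes higher and 846 lower at a mean FPKM of 1, and 1081 and 996 at 12 counts; the cause was not tested. Leaving out 1 library gave 326 to 622 higher and 275 to 547 lower at a mean FPKM of 1, and 333 to 593 and 293 to 544 at 12 counts. These counts fell by more than 1.5 times when rFGF4 replicate 1 or 3, or PBS replicate 1 or 2, was left out, in both fits and directions, and without PBS replicate 3 in all but the lower count at a mean FPKM of 1. The sign of CXCL16 turned without PBS replicate 3 or rFGF4 replicate 4 (−0.11 to 0.12 over left-out libraries; −0.10 to 0.13 at 12 counts), and that of CXCL6 without PBS replicate 2 or 4 or rFGF4 replicate 1 (−0.10 to 0.060). Without 1 library the exact test of ratios cannot go below 0.0571; the difference of CXCL1 to CCL2 was then 1.48 to 1.63, that of CXCL1 to CXCL16 1.21 to 1.46 and that of CXCL16 to CCL2 0.12 to 0.41. Libraries with the same number did not deviate together in every pair (r = 0.12, 0.06, −0.02 and 0.27 for numbers 1 to 4, and 5 of 8 libraries correlated best with their own number). With the replicate block, 561 genes were higher and 452 lower at a mean FPKM of 1 and 486 and 403 at 12 counts; CXCL1 had adjusted p = 0.0123 and CXCL8 0.0145, and the call of CXCR2 was lost (adjusted p = 0.0653). Counts divided by 4, about 1 per fragment, gave CXCL8 2.04 (adjusted p = 0.00258). CCL20, CXCL14 and CX3CL1 had too few counts to test.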
